A study of Mus musculus with 12 samples.

Results

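Oxidative phosphorylation couples the oxidation of fuel to ATP synthesis at the inner mitochondrial membrane. Complexes I and II pass electrons to coenzyme Q, complex III passes them on to cytochrome c, complex IV reduces oxygen, and complex V uses the proton gradient to make ATP. Complexes I, III, IV and V are built from subunits of both genomes, while complex II is wholly nuclear, and the mitochondrial messages are cut from long transcripts made inside the organelle. Here the protein-coding genes of these complexes were taken from the deposited gene table by symbol: every protein-coding mt- gene, the Nduf, Uqcr, Cox4 to Cox8 and Atp5 genes, Sdha to Sdhd, and Cyc1. This gave 110 of 55487 features, of which 13 were mitochondrially encoded and 97 nuclear. The Ndufaf genes, which help to assemble complex I, came in through the Nduf prefix, and Ndufa4 was counted with complex IV.

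The samples were mouse natural killer (NK) cells from the B6.129S4-Ifngtm3.1Lky/J line, mut/mut by genotype, in which yellow fluorescent protein (YFP) reports transcription of the interferon gamma gene. All carried the label HD IL-15, for priming with interleukin-15. There were 4 unstimulated samples, and 4 YFP- and 4 YFP+ samples stimulated for 6 h with an antibody to the activating receptor NK1.1. The sample labels used here give no time for the unstimulated samples, so time in culture and stimulation cannot be told apart. Each group held the labels f2, m2, m3 and m4, and the labels do not say whether the samples came from separate mice, so p-values measure only the spread between these samples. The age of the mice is not given in the sources used here. Every group shared the reporter allele and the priming.

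Libraries held 32.1 to 54.2 M reads, so that 3 reads were worth 0.0553 to 0.0933 CPM (read counts scaled to each library's total). Summed over 10 NK cell markers, levels were 11700 to 14300 CPM in unstimulated samples, 18200 to 22600 CPM in YFP- samples and 27300 to 39300 CPM in YFP+ samples. That list holds genes that respond to stimulation: Gzmb, a cytotoxic granule protease, averaged 6165, 12850 and 24090 CPM, and Klrb1c, which encodes NK1.1, averaged 307.7, 75.33 and 6.503 CPM. The 6 T cell markers summed to 52.6 to 113, 67.3 to 93.6 and 63.6 to 95 CPM, with Cd3e, Cd4 and Cd8a under 1 CPM on average in each group. The other 3 were detected: Cd3g averaged 47.9, 32.47 and 20.65 CPM and Cd3d 17.75, 15.69 and 10.4 CPM, and both fell between YFP+ and unstimulated samples, while Trac averaged 7.43, 34.26 and 48.35 CPM and rose in both stimulated groups. B cell markers stayed at or under 0.863 CPM and erythroid markers at or under 0.123 CPM, and myeloid markers summed to 6.15 to 8.51, 2.65 to 4.86 and 1.27 to 3.61 CPM. The part of these differences in the results was not tested.

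The mitochondrially encoded messages were lower in YFP+ cells than in both other groups, and the nuclear messages as a whole were not. Summed over the 13 mitochondrial genes, the level was 2915, 4376, 4844 and 3397 CPM in the unstimulated samples f2, m2, m3 and m4. It was 4494, 5168, 3099 and 4688 CPM in the YFP- samples, and 2132, 2142, 1818 and 1700 CPM in the YFP+ samples. All 4 YFP+ samples lay below every sample of the other groups, and the unstimulated and YFP- samples overlapped. Between YFP- and unstimulated samples the log2 difference of this sum was 0.171. It ran from 0.02 without the f2 samples to 0.443 without the m3 samples. The 97 nuclear genes summed to 14220 to 16270 CPM without stimulation, 14470 to 16030 CPM in YFP- samples and 14850 to 16070 CPM in YFP+ samples, and the 3 groups overlapped. Since these are bulk samples, fewer cells of a type and less RNA per cell cannot be told apart.

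**Figure D1:**
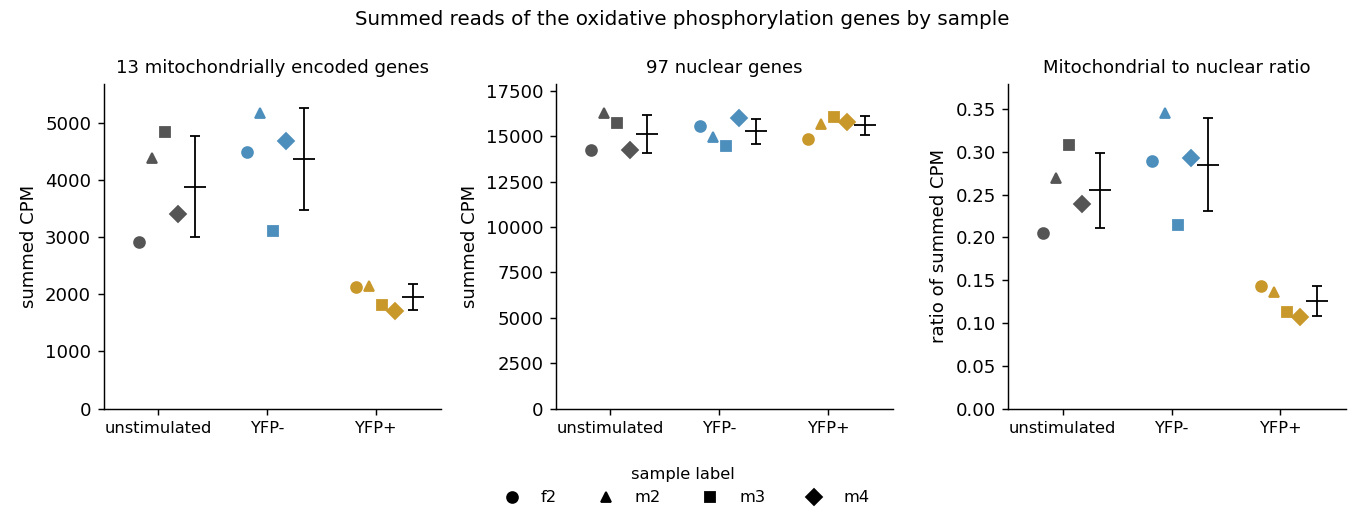
Summed CPM of the 13 mitochondrially encoded genes (left), of the 97 nuclear genes (middle) and their ratio (right), with the group on the x axis, 1 point per sample shaped by sample label, and bars for the mean and SD (n = 4). The YFP+ samples sit between 1700 and 2142 CPM for the mitochondrial genes, below all others, while the nuclear sums overlap.

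The ratio of the mitochondrial to the nuclear sum was 0.255 ± 0.0437 without stimulation, 0.285 ± 0.0539 in YFP- samples and 0.125 ± 0.0176 in YFP+ samples (SD, n = 4 each). This ratio does not depend on the library total. On the log2 scale it differed by -1.18 between YFP+ and YFP-, by -1.02 between YFP+ and unstimulated and by 0.16 between YFP- and unstimulated samples. The 2 mitochondrial ribosomal RNAs, which are not members, averaged 4107, 3524 and 1691 CPM, and their YFP+ samples also lay below all others.

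Of the 13 mitochondrial genes 11 were abundant enough to test, and mt-Nd4l and mt-Atp8 were not. Genes were tested with limma, and a gene was called at a Benjamini-Hochberg adjusted p under 0.05. Between YFP+ and YFP- samples 9 of the 11 fell, beside 18.5% of all 12364 tested genes called lower. Over the 11 the median log2 fold change was -0.94, against -0.19 over all tested genes. The YFP+ and YFP- samples did not overlap for the same number, 9 of 11 lower, beside 17.8% of all tested genes. None rose, beside 3.28% called higher. Between YFP+ and unstimulated samples 10 of the 11 fell and none rose, beside 33.3% of tested genes called lower and 27.5% called higher, and 8 of the 11 did not overlap, beside 30.8%. Between YFP- and unstimulated samples 1 of the 11 rose and none fell, beside 30.2% called higher and 20.9% called lower. All 11 overlapped there, beside 30.9% of tested genes not overlapping and higher and 21.7% lower. The comparisons share groups, so their counts are not independent.

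In complex IV, mt-Co1 had the largest fold change of the 11 in both comparisons of YFP+ cells. mt-Co1, the catalytic subunit of cytochrome c oxidase (ENSMUSG00000064351), was at 1201, 1727, 1915 and 1501 CPM in unstimulated samples. It was at 1753, 1931, 1172 and 1928 CPM in YFP- samples and at 737.4, 652.9, 519.3 and 526.9 CPM in YFP+ samples. Every YFP+ sample was below every other sample. The log2 fold change was -1.46 ± 0.19 (SE) between YFP+ and YFP- (limma adjusted p = 0.000128) and -1.38 ± 0.19 between YFP+ and unstimulated (adjusted p = 2.35e-05). mt-Co2, which takes the electrons from cytochrome c, differed by -0.94 ± 0.21 between YFP+ and YFP- (limma adjusted p = 0.00638), but without the m4 samples its adjusted p was 0.0554. mt-Co3, a core subunit without redox centres, averaged 118.9, 113.7 and 79.59 CPM. It fell between YFP+ and unstimulated samples (log2 fold change -0.60, limma adjusted p = 0.0171). This call was lost without the m2 or the m4 samples (adjusted p = 0.116 and 0.0626) and after centring on the median (0.0602). The difference of mt-Co3 from YFP- was -0.56 (adjusted p = 0.0595), and -0.75 (adjusted p = 0.00502) without the YFP+ sample m3.

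For complex III, mt-Cytb, which carries both quinone sites, was at 666.7, 1034, 1265 and 789.0 CPM in unstimulated samples. It was at 1203, 1350, 791.7 and 1241 CPM in YFP- samples and at 605.9, 570.4, 464.3 and 458.0 CPM in YFP+ samples. The YFP+ samples lay below all others, and against YFP- the log2 fold change was -1.11 ± 0.21 (limma adjusted p = 0.00178). Between YFP+ and unstimulated samples it was -0.81 (adjusted p = 0.00377).

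Complex I takes 7 subunits of its membrane arm from the mitochondrial genome. mt-Nd5, a proton-pumping subunit at the far end of that arm, was at 147.0, 203.0, 216.1 and 142.1 CPM in unstimulated and at 268.8, 416.7, 175.9 and 317.5 CPM in YFP- samples. In YFP+ samples it was at 138.5, 145.3, 75.69 and 87.14 CPM, below every YFP- sample. It was the mitochondrial gene that rose between YFP- and unstimulated samples (log2 fold change 0.69, limma adjusted p = 0.0461), with overlapping groups. That call was lost without the f2, m2 or m4 samples (adjusted p = 0.142, 0.124 and 0.232). Between YFP+ and YFP- it fell (log2 fold change -1.39, limma adjusted p = 0.00254). Its fall against unstimulated samples (-0.70, adjusted p = 0.0383) was not called without the YFP+ sample m3 (adjusted p = 0.0998) or without the m4 samples (adjusted p = 0.107). Nor was this fall called without all m3 samples or after trimmed-mean scaling (limma adjusted p = 0.138 and 0.059).

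The other mitochondrial subunits of complex I had smaller fold changes than mt-Nd5 between YFP+ and YFP-, but not all of them against unstimulated samples. Between YFP+ and YFP-, limma gave log2 fold changes of -1.08 for mt-Nd4 and -0.82 for mt-Nd2, with adjusted p of 0.000924 and 0.005. mt-Nd6, the one gene here on the other strand from the rest, differed by -1.09 (limma adjusted p = 0.00249). mt-Nd1, which forms part of the quinone channel, differed by -0.76 (limma adjusted p = 0.011), and by -0.73 and -0.71 without the m2 or the m4 samples (adjusted p = 0.0531 and 0.0764). All 4 also fell between YFP+ and unstimulated samples, by 0.68 (mt-Nd6) to 0.88 (mt-Nd4) on the log2 scale. mt-Nd3 was at 22.50, 24.35, 42.48 and 21.50 CPM in YFP+ samples, so that m3 alone lay above the YFP- range of 25.05 to 33.32 CPM. Its log2 fold change was -0.17 against YFP- (limma adjusted p = 0.576) and -0.25 against unstimulated samples (adjusted p = 0.294), which became -0.47 (adjusted p = 0.00959) without the YFP+ sample m3.

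For complex V, mt-Atp6, the subunit beside the rotating ring, averaged 39.02, 39.37 and 25.48 CPM and fell by 0.60 on the log2 scale between YFP+ and YFP- (limma adjusted p = 0.0392). This call did not survive leaving out the samples of any 1 label (adjusted p = 0.174, 0.0955, 0.0517 and 0.0737 without f2, m2, m3 and m4). The same call was lost after trimmed-mean scaling and after centring on the median (limma adjusted p = 0.101 and 0.149). mt-Nd4l and mt-Atp8 stayed at or under 1.04 and 1.378 CPM in every library and were not tested.

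**Figure D2:**
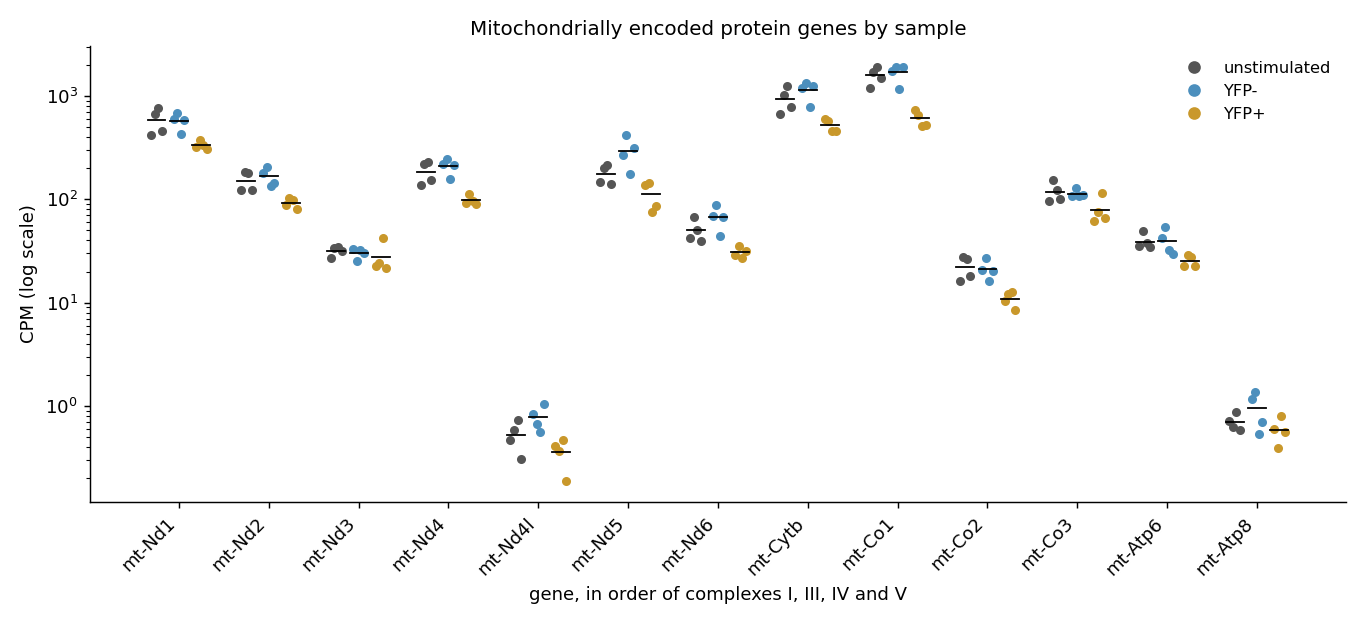
CPM (log axis) of the 13 mitochondrially encoded genes in each sample, with 1 point per sample coloured by group and a line at each group mean. The YFP+ points lie below all YFP- points for 10 of the 13 genes, and mt-Nd3, mt-Co3 and mt-Atp8 overlap.

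The number of mitochondrial genes that fell between YFP+ and YFP- ran from 6 to 10 over the alternatives. It was 8 after trimmed-mean scaling or centring on the median. It was 8, 7, 9 and 6 when leaving out the f2, m2, m3 and m4 samples, and 10 without the YFP+ sample m3. In all 15 alternatives no mitochondrial gene was called higher between YFP+ and either other group.

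The level of 7 of the 13 genes is uncertain, because a stretch of each is also found at 99% identity or more in a pseudogene on chromosome 1. The start of mt-Nd3 and of its copy is shown because it holds the base by which reads could be told apart. These are bases 1 to 43 of each transcript in GENCODE M21, with the mismatch in capitals.
mt-Nd3: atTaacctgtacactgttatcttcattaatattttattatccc
Gm28438: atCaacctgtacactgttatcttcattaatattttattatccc
Counting from 1 at the 5′ end of mt-Nd3, the difference is T3C, and it is the 1 mismatch over 345 compared bases. mt-Co3 matched Gm28437 over 783 of its 784 bases and was split almost evenly with it, at 118.9 and 121.9 CPM in unstimulated samples and 79.59 and 83.48 CPM in YFP+ samples. Gm28437 had a log2 fold change of -0.51 between YFP+ and YFP- (limma adjusted p = 0.0925), beside -0.56 for mt-Co3. mt-Co1 matched Gm29216 over 483 of 1545 bases, and that copy averaged 46.64 CPM in YFP- and 20.51 CPM in YFP+ samples. With the copies added to the mitochondrial genes, the log2 difference of the ratio between YFP+ and YFP- was -1.14, and over the 6 genes without such a copy it was -1.05. Between YFP+ and unstimulated samples the same 2 values were -1.0 and -0.809, beside -1.02 over all 13 genes.

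Nuclear genes of the same complexes rose and fell in similar numbers after stimulation, and few differed between the YFP+ and YFP- cells. Of the 97, 91 were tested, and Cox4i2, Cox7b2, Cox8b, Cox8c, Ndufa4l2 and a second Atp5o entry were too low. Between YFP- and unstimulated samples 18 rose and 14 fell (background 30.2% and 20.9%), so that 35.2% were called, beside 51.1% of all tested genes. The groups did not overlap for 19 that were higher, beside 30.9% of tested genes, and 18 that were lower, beside 21.7%. Between YFP+ and unstimulated samples 22 rose and 14 fell (background 27.5% and 33.3%), 39.6% beside 60.8%. Here 19 did not overlap and were higher, beside 24.0% of tested genes, and 12 were lower, beside 30.8%. Between YFP+ and YFP- samples 3 rose and 2 fell (background 3.28% and 18.5%), 5.49% beside 21.8%. Of the 91, 6 did not overlap and were higher, beside 4.31%, and 5 were lower, beside 17.8%. Their median log2 fold changes in that order were -0.015, 0.06 and 0.07, against 0.14, -0.03 and -0.19 over all tested genes.

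The balance of rises and falls moved with the scaling. The share of reads in rRNA-like features, which enters the library total, averaged 13.75% in unstimulated samples, 10.96% in YFP- samples and 8.733% in YFP+ samples. The groups overlapped, at 11.96% to 15.24%, 7.153% to 17.8% and 5.125% to 15.48%, with m3 highest in both stimulated groups. Lars2, Mir6236 and Gm23935 together took 15.46% to 20.05%, 7.925% to 12.49% and 8.588% to 15.51%. There every YFP- sample lay below every unstimulated one. The part of both shares in the results was tested only through such scalings. After trimmed-mean scaling the nuclear counts were 18 up and 22 down for YFP- over unstimulated, 34 up and 11 down for YFP+ over unstimulated, and 18 up and 0 down for YFP+ over YFP-. After centring on the median the last was 15 up and 0 down. Other totals turned the balance down. With totals over nuclear protein-coding genes only, the counts in the same order were 17 up and 20 down, 18 up and 22 down, and 1 up and 4 down. With totals without rRNA-like features, Lars2, Mir6236 and Gm23935 they were 9 up and 27 down, 13 up and 26 down, and 2 up and 3 down. With these totals the YFP- rises of, among others, Sdhb, Ndufb6, Ndufab1 and Atp5b were not called (limma adjusted p = 0.0938, 0.0523, 0.0585 and 0.0607). Nor, among others, were the YFP+ rises of Ndufs3, Ndufs5, Uqcr10 and Atp5md (limma adjusted p = 0.236, 0.148, 0.181 and 0.0546). Trimmed-mean scaling moved the median of all tested genes between YFP+ and YFP- from -0.19 to 0.01, and the mitochondrial median was then -0.75. A scaling shifts all genes of a library alike. The nuclear median between YFP+ and YFP- lay above that of all tested genes under both: 0.07 beside -0.19 as deposited, and 0.27 beside 0.01 after trimmed-mean scaling.

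**Figure D3:**
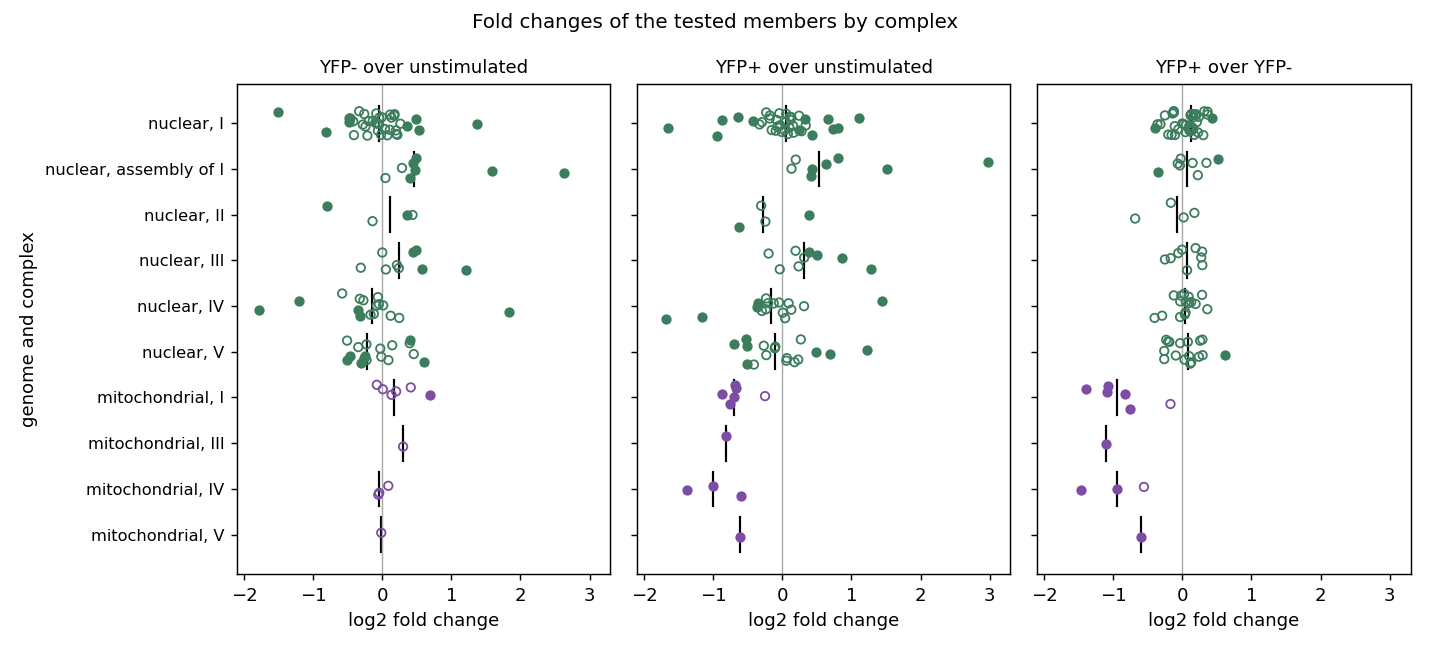
Log2 fold changes of the 102 tested members in the 3 comparisons, by genome and complex, with filled points at a limma adjusted p under 0.05, open points above it and a line at each median. The mitochondrial genes lie left of 0 in both comparisons of YFP+ cells, and the nuclear genes spread around 0.

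Of the 8 assembly factors of complex I, 6 rose and none fell in YFP- cells, beside 30.2% of all tested genes called higher, and 6 rose and none fell in YFP+ cells, beside 27.5%, both against unstimulated samples. Their sum was 157.9 to 176.9 CPM without stimulation, 247.6 to 303.6 CPM in YFP- samples and 283.2 to 308.4 CPM in YFP+ samples. The largest rise was that of Ndufaf4, an assembly factor on chromosome 4 (24898083 to 24905001 in GENCODE M21, built on GRCm38). It was at 9.390, 11.63, 13.68 and 9.063 CPM in unstimulated samples, at 66.41, 68.93, 55.16 and 79.81 CPM in YFP- samples and at 85.69, 85.23, 79.58 and 90.90 CPM in YFP+ samples. Both stimulated groups lay far above the unstimulated one, 6.21-fold and 7.9-fold higher (limma log2 fold changes 2.63 and 2.98, each ± 0.15, adjusted p = 3.79e-08 and 4.4e-09). The YFP- and YFP+ samples overlapped. Ndufaf6, a second assembly factor at lower levels, averaged 2.303, 6.699 and 7.037 CPM (log2 fold changes 1.58 and 1.52). Ndufaf1, Ndufaf7 and Ndufaf8 rose by 0.41 to 0.63 in both comparisons. Without f2 or m4 the YFP- calls of all 3 were lost (adjusted p = 0.0626 to 0.178), and so were the YFP+ calls of Ndufaf1 and Ndufaf7 (0.118 to 0.199). Without m2 both calls of Ndufaf1 and Ndufaf7 were lost too (0.0853 to 0.107). The YFP- call of Ndufaf8 was also lost after centring and with nuclear protein-coding totals (limma adjusted p = 0.208 and 0.118). Ndufaf5 was called in neither comparison (adjusted p = 0.805 and 0.265). Ndufaf2 rose in YFP+ cells (0.80 over unstimulated) and Ndufaf3 in YFP- cells (0.48 over unstimulated). The differences of these 2 between YFP+ and YFP- were 0.51 and -0.35 (limma adjusted p = 0.0491 and 0.0416), and both calls were lost without the samples of any 1 label. The Ndufaf2 call was also lost without the YFP+ sample m3 alone (0.44, adjusted p = 0.117). After trimmed-mean scaling and centring the Ndufaf3 difference was -0.152 and -0.087 (limma adjusted p = 0.389 and 0.656). Totals without rRNA-like features, Lars2, Mir6236 and Gm23935 cost the YFP- calls of Ndufaf1, Ndufaf3 and Ndufaf8 (limma adjusted p = 0.0523, 0.0613 and 0.269). The YFP+ calls of Ndufaf1 and Ndufaf7 over unstimulated samples were then lost too (limma adjusted p = 0.0838 and 0.0644).

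Among the 37 nuclear complex I subunits, 4 rose and 5 fell in YFP- cells and 7 rose and 5 fell in YFP+ cells against unstimulated samples. These were 24.3% and 32.4% called, beside 51.1% and 60.8% of all tested genes. Ndufv3, an accessory subunit of the NADH-oxidising module, fell most. It was at 242.1, 301.8, 286.2 and 266.3 CPM in unstimulated samples, at 98.57, 92.17, 99.92 and 93.27 CPM in YFP- samples and at 68.04, 85.28, 112.2 and 87.73 CPM in YFP+ samples. Both stimulated groups lay below the unstimulated one and overlapped each other, with log2 fold changes of -1.51 and -1.65 (limma adjusted p = 1.99e-06 and 2.9e-07). Ndufa3, an accessory subunit, followed with -0.82 and -0.94 (limma adjusted p = 0.0048 and 0.00132, the first 0.0635 without m2). Ndufb11 differed by -0.48 in YFP- cells and Ndufa13 by -0.47, and Ndufa6 by -0.64 in YFP+ cells and by -0.28 in YFP- cells, where its limma adjusted p was 0.0843. The Ndufa13 call was lost without m2 or m4 (adjusted p = 0.185 and 0.0925).

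Ndufb10 stepped down through the groups: 133.0 to 154.1 CPM without stimulation, 97.97 to 113.2 CPM in YFP- samples and 78.72 to 81.13 CPM in YFP+ samples, with no overlap. Its log2 fold change between YFP+ and YFP- was -0.40 (limma adjusted p = 0.0118), and after trimmed-mean scaling it was -0.20 (adjusted p = 0.145). Without the f2, m2 or m4 samples its adjusted p was 0.0676, 0.0621 and 0.0976. Ndufs1, the large iron-sulphur subunit, rose by 1.36 and 1.11 on the log2 scale (limma adjusted p = 0.00955 and 0.0229). Its YFP+ samples ran from 14.16 to 50.23 CPM, and the second call was lost without the f2 samples (0.675, adjusted p = 0.159) or the m2 samples (adjusted p = 0.0841), and the first without m2 or m4 (adjusted p = 0.0559 and 0.0531). Ndufab1, the acyl carrier protein, rose by 0.49 (adjusted p = 0.0586 without m4) and 0.81, and Ndufb6 by 0.54 and 0.73. Ndufs8, Ndufs3, Ndufs5 and Ndufa12 rose in YFP+ cells by 0.25, 0.32, 0.43 and 0.66. Without f2, m2 or m4 the Ndufs8 call was lost (adjusted p = 0.181, 0.113 and 0.147), as it was without the YFP+ sample m3 (0.0615), and with nuclear protein-coding totals its value was 0.117. The Ndufs3 call was lost without the same 3 labels (adjusted p = 0.0523, 0.0777 and 0.119). With nuclear protein-coding totals the Ndufs3 and Ndufs5 calls were lost too (limma adjusted p = 0.0732 and 0.0592). Ndufa12 also passed between YFP+ and YFP- (0.43, limma adjusted p = 0.0419), but not without the YFP+ sample m3 (adjusted p = 0.0931) or the m2 or m4 samples (adjusted p = 0.156 and 0.109). Ndufv1, the NADH-binding subunit, rose by 0.36 in YFP- cells (limma adjusted p = 0.038), a call lost without f2, m2 or m4 (adjusted p = 0.151, 0.11 and 0.145) and after centring (0.0648). It differed by 0.16 in YFP+ cells (adjusted p = 0.331).

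Complex II oxidises succinate and has 4 subunits, which went different ways. Sdhb, the iron-sulphur subunit, rose by 0.36 and 0.38 in YFP- and YFP+ cells over unstimulated ones (limma adjusted p = 0.00721 and 0.00405), the first not without m2 or m4 (adjusted p = 0.0658 and 0.078). Sdhd, a membrane anchor, fell by 0.80 and 0.62 (limma adjusted p = 0.0065 and 0.0203), though without the m4 samples neither passed (adjusted p = 0.0714 and 0.0998), nor the second without m2 (adjusted p = 0.128). Sdhc, the other anchor, differed by -0.14 and -0.30 (limma adjusted p = 0.389 and 0.0554). The first was called after centring (adjusted p = 0.0396), and the second with the sample labels as blocks (0.0279). Without rRNA-like features and with nuclear protein-coding totals the second was also called (limma adjusted p = 0.00958 and 0.00312). With totals that left out Lars2, Mir6236 and Gm23935 too, both were (0.0214 and 0.00102). Sdha, the flavoprotein, was at 154.0, 131.8, 28.34 and 68.23 CPM in YFP+ samples and at 84.67 to 188.2 CPM in YFP- samples. Its log2 fold change over unstimulated was 0.44 in YFP- and -0.24 in YFP+ cells (limma adjusted p = 0.421 and 0.654), and the second became 0.25 without the YFP+ sample m3.

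That library differed from the other YFP+ libraries by transcript length. In m3 the 21 nuclear members with under 1 kb of exon lay 0.43 above the other YFP+ samples on the log2 scale (median), and the 34 of 2 kb and over lay at -0.03. Over all tested genes the same medians were 0.39 and -0.21. The library f2 went the other way for the short members, at -0.39. The part of this in the results was not tested, and for members, values without the YFP+ sample m3 are given beside the genes whose call they changed.

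The summed level of nuclear complex III was higher after stimulation. Its 9 genes summed to 1610 to 1923 CPM without stimulation, 2095 to 2396 CPM in YFP- samples and 2179 to 2435 CPM in YFP+ samples, so that both stimulated groups lay above the unstimulated one. In each comparison with unstimulated samples 4 genes rose and none fell, 44.4% called beside 51.1% and 60.8% of all tested genes, and 30.2% and 27.5% called higher. Uqcrq, a small subunit, was at 114.3, 171.0, 150.8 and 120.7 CPM in unstimulated samples, at 328.0, 268.1, 304.7 and 381.1 CPM in YFP- samples and at 248.4, 310.1, 402.1 and 398.3 CPM in YFP+ samples. It rose 2.31-fold and 2.43-fold (limma adjusted p = 9.59e-05 and 3.2e-05). Cyc1, the haem subunit that hands electrons to cytochrome c, averaged 104.4, 154.9 and 189.3 CPM and rose by 0.57 and 0.86 on the log2 scale (limma adjusted p = 0.000591 and 1.05e-05). All YFP+ samples of Cyc1 lay above all YFP- samples, with a log2 difference of 0.29 (limma adjusted p = 0.07). Uqcrc2, a core subunit, rose by 0.45 and 0.39, and Uqcr10 by 0.50 in YFP+ cells. The Uqcrc2 calls were lost without m4 (adjusted p = 0.0872 and 0.0918), without m2 (0.0635 and 0.0967) and, in YFP+ cells, without f2 (0.0641), and the Uqcr10 call without m3 or m4 (0.0534 and 0.113). Uqcrfs1, the Rieske iron-sulphur protein, rose by 0.49 in YFP- cells (limma adjusted p = 0.0197, but 0.124 without m4), and its 0.32 in YFP+ cells (adjusted p = 0.0973) became 0.47 (adjusted p = 0.0073) without the YFP+ sample m3. Uqcrc1, the other core subunit, differed by 0.24 in both (limma adjusted p = 0.194 and 0.189), and by 0.37 in YFP+ cells without m3 (adjusted p = 0.0236).

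Among the 16 tested nuclear genes of complex IV, 1 rose and 4 fell in each comparison with unstimulated samples, 31.2% called beside 51.1% and 60.8%. Those with the largest fold changes there were isoforms known from other tissues. Cox6a2, the heart and muscle form of subunit VIa, was at 1.607 to 2.343 CPM without stimulation, 5.127 to 9.187 CPM in YFP- samples and 3.835 to 6.851 CPM in YFP+ samples. It rose by 1.84 and 1.44 on the log2 scale (limma adjusted p = 3.3e-05 and 0.000141). Cox7a1, the heart and muscle form of VIIa, went from 6.924 to 12.10 CPM to 2.100 to 3.064 and 1.410 to 3.922 CPM, with log2 fold changes of -1.78 and -1.68 (limma adjusted p = 0.000189 and 0.000173). Cox6b2, the testis form of VIb, stayed at or under 2.184 CPM and differed by -1.21 and -1.15 (limma adjusted p = 0.0181 and 0.0182). Its first call was lost without m2, m3 or m4 (adjusted p = 0.0557, 0.0622 and 0.0518) and the second without f2 or m2 (0.0999 and 0.0949). These 3 were the tested ones of 8 such isoforms. Cox6a1 and Cox8a, widely expressed subunits, fell by 0.32 to 0.36 in both comparisons. All 4 calls were lost without m2 (adjusted p = 0.0773 to 0.149), 3 of them without m4 (Cox6a1 0.0666 in YFP+ cells, Cox8a 0.0979 and 0.0664), and that of Cox8a in YFP+ cells without f2 (0.0511). After trimmed-mean scaling Cox6a1 and Cox8a differed by -0.214 and -0.202 in YFP+ cells (limma adjusted p = 0.0933 and 0.131). Cox4i1, the common form of subunit IV, ran from 662.6 to 889.2 CPM over all 12 samples and differed by 0.12 and 0.09 (limma adjusted p = 0.359 and 0.484). Cox4i2, its hypoxia-linked form, stayed at or under 0.9992 CPM. Cox5a differed by 0.01 and 0.04 (limma adjusted p = 0.907 and 0.732). Cox7a2l, which takes part in respiratory supercomplexes, differed by 0.25 and -0.05 (limma adjusted p = 0.103 and 0.762), and Ndufa4 by -0.05 and 0.32 (adjusted p = 0.806 and 0.0687).

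Per kb of exon, the order of the abundant members changed between the groups. In unstimulated cells mt-Co1 led at 1027 CPM per kb, before mt-Cytb at 820.5 and Cox6a1 at 731.9. In YFP+ cells Cox6a1 led at 572.9 CPM per kb, before Cox4i1 at 501.6 and mt-Cytb at 458.6, with mt-Co1 at 394.3. Exon lengths from the annotation set this scale. The level of mt-Co1 is among those left uncertain by a chromosome 1 copy, as is that of the other mitochondrial genes with such a copy.

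In complex V the 3 genes for the c subunit of the rotor ring split. They encode the same mature protein behind different import sequences. Their promoters are shown because the genes differ in response, from 250 bases before to 50 after the start site (RefSeq, GRCm38.p6), with matches to the motifs searched in capitals.
Atp5g1, chr11:96075582-96075881, minus strand: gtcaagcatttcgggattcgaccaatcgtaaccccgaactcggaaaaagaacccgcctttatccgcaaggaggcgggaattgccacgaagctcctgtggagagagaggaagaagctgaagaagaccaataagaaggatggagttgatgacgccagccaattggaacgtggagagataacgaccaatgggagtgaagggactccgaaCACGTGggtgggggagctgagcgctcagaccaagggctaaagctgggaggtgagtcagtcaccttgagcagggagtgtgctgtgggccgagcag
Atp5g2, chr15:102670998-102671297, minus strand: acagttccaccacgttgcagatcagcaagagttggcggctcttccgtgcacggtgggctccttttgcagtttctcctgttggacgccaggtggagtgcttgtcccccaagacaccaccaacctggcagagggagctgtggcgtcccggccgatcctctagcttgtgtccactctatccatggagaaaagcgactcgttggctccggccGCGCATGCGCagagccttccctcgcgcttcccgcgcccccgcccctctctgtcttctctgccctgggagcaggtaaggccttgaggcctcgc
Atp5g3, chr2:73911277-73911576, minus strand: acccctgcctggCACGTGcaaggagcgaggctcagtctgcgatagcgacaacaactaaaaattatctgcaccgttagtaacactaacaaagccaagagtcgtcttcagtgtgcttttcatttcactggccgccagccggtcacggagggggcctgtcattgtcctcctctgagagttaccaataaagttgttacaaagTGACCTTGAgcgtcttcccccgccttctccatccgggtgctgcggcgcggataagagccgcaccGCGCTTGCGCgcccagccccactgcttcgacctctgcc
Atp5g1 holds the E-box CACGTG at -44 and Atp5g2 the NRF1 motif, 10 bases long, at -42, with the start base counted as 0. Atp5g3 holds the E-box at -238 and, on the other strand, the NRF1 motif at 12 and the ERR motif TCAAGGTCA at -52. A match is a description and not a bound site.

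Atp5g1 was at 180.8, 224.8, 215.0 and 162.6 CPM in unstimulated samples, at 302.9, 294.5, 287.9 and 294.3 CPM in YFP- samples and at 410.8, 434.6, 519.1 and 458.4 CPM in YFP+ samples. The 3 groups did not overlap. Its log2 fold changes were 0.60 and 1.23 over unstimulated samples (limma adjusted p = 0.000884 and 1.04e-06) and 0.62 between YFP+ and YFP- (adjusted p = 0.00219). Of the 5 nuclear members called between YFP+ and YFP-, it was the one that kept its call in all 15 alternatives. Atp5g2 went the other way, with 173.9 to 202.3 CPM before stimulation, 128.0 to 136.9 CPM in YFP- samples and 91.74 to 138.0 CPM in YFP+ samples. It fell by 0.47 and 0.70 on the log2 scale (limma adjusted p = 0.00706 and 0.000264), and the -0.23 between YFP+ and YFP- did not pass (adjusted p = 0.204). Atp5g3 ran from 209.3 to 310.8 CPM over all samples, with log2 fold changes of 0.15, 0.18 and 0.03 (limma adjusted p = 0.288, 0.183 and 0.865). Both Atp5g1 and Atp5g2 have expressed pseudogene copies at 99% identity or more, which could share reads with them. So, among other members, do Ndufs5, Ndufa12, Ndufab1 and Atp5md. The Ndufs5 copy BC002163 averaged 9.99 CPM beside 61.29 CPM for the gene.

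**Figure D4:**
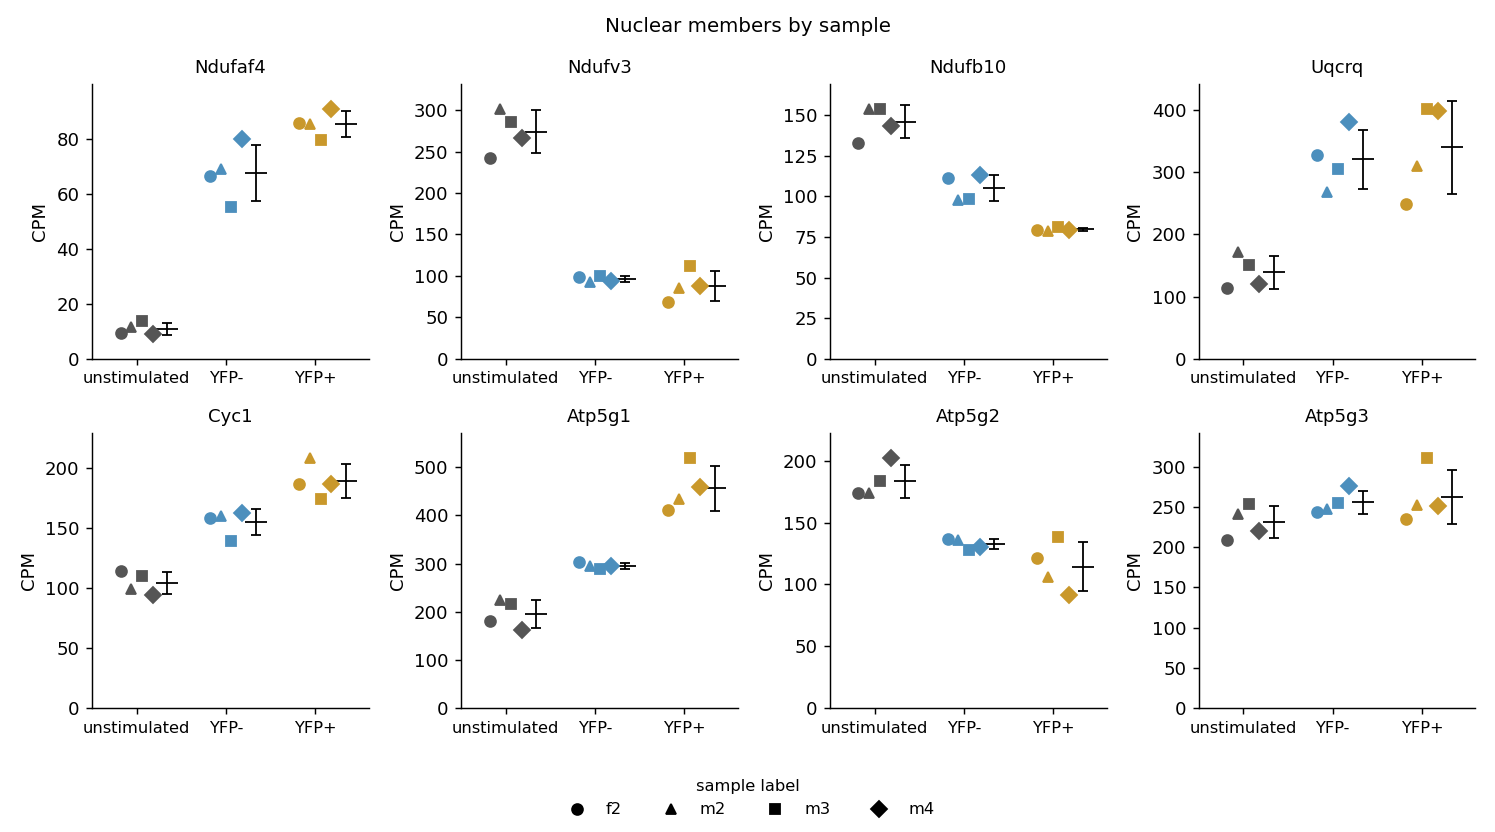
CPM of 8 nuclear members by sample, with 1 point per sample shaped by sample label and bars for the mean and SD (n = 4). Ndufaf4, Uqcrq and Cyc1 rise after stimulation and Ndufv3 falls, while Atp5g1 rises and Ndufb10 falls through all 3 groups without overlap.

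Of the catalytic head of complex V, Atp5b, the beta subunit, rose by 0.41 and 0.48 (limma adjusted p = 0.0202 and 0.00591), the first not without m2 or m4 (adjusted p = 0.0891 and 0.114) and the second not without m2 (0.053). Atp5a1, the alpha subunit, differed by 0.46 and 0.27 (limma adjusted p = 0.14 and 0.367), and by 0.53 in YFP+ cells without the YFP+ sample m3 (adjusted p = 0.0239). The spread is shared by all groups, and without that sample the 0.46 in YFP- cells passed too (adjusted p = 0.0394). Atp5c1 and Atp5d, of the central stalk, fell by 0.25 and 0.30 in YFP- cells and by 0.51 each in YFP+ cells. The YFP- call of Atp5c1 was lost without any 1 label (adjusted p = 0.0925, 0.107, 0.0982 and 0.115 without f2, m2, m3 and m4), and that of Atp5d without m3 or m4 (0.0501 and 0.0691). Atp5j2, a membrane subunit, fell by 0.51 in YFP- cells (limma adjusted p = 0.0252, but 0.183 without m2 and 0.0619 without m4), and in YFP+ cells Atp5h fell by 0.52 and Atp5md rose by 0.69.

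Some motifs, which the choice by symbol did not use, were more frequent in the promoters of the nuclear members than in all promoters. Each motif was absent from most of the members' promoters. RefSeq promoters were matched for 77 of the 97, and 82 promoters were searched on both strands. The NRF1 motif, whose letters stand in capitals in the Atp5g2 promoter (with any base at the sixth place), was in 24.4% of them, against 4.6% of all 32851 promoters of the same length. The ETS motif CCGGAAG was in 23.2% against 8.86%, and the YY1 motif AAGATGGCG in 9.8% against 1.4%. The E-box CACGTG was in 8.5% against 7.15%, and the ERR motif TCAAGGTCA in 2.4% against 0.42%. The comparison was with all promoters and not with those of the tested genes. Ndufaf4, the largest rise, holds an NRF1 motif at -113, and Atp5g2, which fell, holds one at -42. A link between motif and response was not tested.

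The other genes of the pathway were taken from lists by role. For each list the background is the share of all tested genes: 30.2% called higher and 20.9% lower in YFP- cells and 27.5% higher and 33.3% lower in YFP+ cells over unstimulated ones, and 3.28% higher and 18.5% lower between YFP+ and YFP-. Of 26 tested genes for mitochondrial gene expression, 19 rose and 2 fell in YFP- cells and 21 rose and none fell in YFP+ cells over unstimulated ones, 80.8% called in each beside 51.1% and 60.8% of all tested genes. Their median log2 fold changes were 1.11 and 1.17, against 0.14 and -0.03 over all tested genes. Tfam, which packages mitochondrial DNA and helps to start its transcription, rose by 0.82 and 0.87, and Polrmt, the mitochondrial RNA polymerase, by 0.71 and 0.64. Tefm, the elongation factor, rose by 1.68 and 2.16, Elac2, which cuts the tRNAs from the transcript, by 1.78 and 2.10, and Fastkd2, an RNA-binding protein, by 2.98 and 2.47. Polg, the DNA polymerase, and Mterf1a, a transcription terminator with a close paralog, fell in YFP- cells by 0.63 and 0.52. The Polg call was lost without m3 or m4 (adjusted p = 0.0661 and 0.0752) and that of Mterf1a without any 1 label (0.0509 to 0.16). Between YFP+ and YFP- cells 1 of the 26 passed, Ssbp1, which binds single-stranded mitochondrial DNA (0.46, limma adjusted p = 0.0282), 3.85% beside 21.8%. That call was lost without the YFP+ sample m3 (0.40, adjusted p = 0.0668) and without any 1 label (0.0555, 0.0903, 0.113 and 0.109 without f2, m2, m3 and m4).

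Of 30 tested assembly factors of complexes II to V, 17 rose and 3 fell in YFP- cells and 14 rose and 7 fell in YFP+ cells, 66.7% and 70.0% called beside 51.1% and 60.8%. Coa7 rose by 1.67 and 1.99 and Sdhaf1 by 1.92 and 1.59. Surf1, an assembly factor of complex IV, fell by 0.65 and 1.45, and Cox20 by 1.18 and 1.35. Between YFP+ and YFP- cells the 3 that passed all fell: Surf1 by 0.80, Uqcc3 by 0.43 and Cox17, the copper chaperone, by 1.18 (limma adjusted p = 0.00103, 0.0254 and 0.0158), 10.0% lower beside 18.5% of all tested genes. The Uqcc3 call was lost without f2, m2 or m4 (adjusted p = 0.096, 0.142 and 0.132) and that of Cox17 without f2 or m4 (0.0976 and 0.0841). After trimmed-mean scaling and centring the Uqcc3 difference was -0.228 and -0.164 (limma adjusted p = 0.184 and 0.434). Of 15 genes for coenzyme Q and cytochrome c, 8 rose and none fell in YFP- cells, and 7 rose and 2 fell, Coq8b and Coq9, in YFP+ cells, 53.3% and 60.0% called, near the 51.1% and 60.8% of all tested genes. The Coq8b call was lost without m2 or m3 (adjusted p = 0.0505 and 0.0599) and that of Coq9 without m2, m3 or m4 (0.0738, 0.0766 and 0.139). Cycs, cytochrome c itself, averaged 94.01, 242.7 and 349.2 CPM and also rose between YFP+ and YFP- (0.54, limma adjusted p = 0.0157, but 0.0612 without f2 and 0.0897 without m2). Coq8a, a kinase-like factor of coenzyme Q synthesis, averaged 4.326, 19.30 and 4.287 CPM, and fell by 2.49 between YFP+ and YFP- (limma adjusted p = 0.0021).

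Of the 12 tricarboxylic acid cycle genes, 8 rose and 1 fell in YFP- cells and 5 rose and 2 fell in YFP+ cells, 75.0% and 58.3% called beside 51.1% and 60.8% of all tested genes. Mdh2 rose by 0.73 and 1.0, Cs by 0.53 and 0.54 and Dlst by 1.55 and 1.05, while Idh3g fell by 0.47 and 0.64 and Idh3b by 0.54 in YFP+ cells. Without m2 or m4 both calls of Cs were lost (adjusted p = 0.0712 to 0.257), and the second also without f2 (0.154). The second call of Dlst was lost without f2 or m2 (0.132 for each), and the first of Idh3g without m3 (0.0686). Of 7 tested regulators of nuclear oxidative phosphorylation genes, Gabpb1, a subunit of the ETS factor GABP, rose by 1.95 and 2.17, and Pprc1, a coactivator, by 1.52 and 1.55. Yy1 fell by 0.45 and 0.48, and Ppargc1b by 0.65 in YFP+ cells. The Ppargc1b call was lost without the YFP+ sample m3 (-0.46, adjusted p = 0.111) and without m2, m3 or m4 (0.166, 0.146 and 0.0806). The first call of Yy1 was lost without m2, m3 or m4 (0.134, 0.0526 and 0.107) and the second without f2 or m2 (0.077 and 0.0698).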

How the data were processed

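Libraries of 12 samples were made from 10 ng of total RNA of RIN above 8.0 and sequenced in pairs of 150 bases, per the labels' protocols. STAR 2.7.9a, featureCounts 2.0.3, Subread, bcl2fastq and GRCm38 are named in the submitters' processing notes, while strand and multi-mapping settings are not given in the sources used here. The deposited table holds log2 CPM by the authors per gene, and no column without a sample (0). Whole reads were recovered from these log2 values. Genes above 0 log2 CPM in at least 4 samples (12364) were tested on the deposited log2 CPM with limma 3.58.1 (R 4.3.3, all 12 samples, an intensity trend, Benjamini-Hochberg adjustment over all tested genes). The test was checked on simulated data. The members and lists were chosen with earlier results of these data known. Named genes were the 13 mitochondrial genes, a set list, and per comparison up to 5 rises and 5 falls among called nuclear members with mean log2 CPM of at least 2 and 1 direction in all 4 label pairs, and others by complex after their values were seen. Members' transcripts were matched with blastn 2.17.0 to GENCODE M21, which held 55141 gene identifiers (99.4%) and gave the coordinates and exon lengths, which are not the authors'. Promoters came from RefSeq (GRCm38.p6). Sums over members carry no test. Alternatives were the replicate block, filters, pseudocount, scalings, weights and left-out samples. Python 3.11.15, pandas 2.3.3, numpy 2.4.6, scipy 1.17.1 and matplotlib 3.10.9 were used.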

Additional observations from a re-analysis of the deposited data

Results flagged for a closer look

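In 9 sets of 4 samples, 1 sample lay far from the other 3 on the log2 scale, its gap taking the given share of the group's range (Dixon's ratio). Chance would give about 14.2 among the 285 sets examined. Among members, the unstimulated samples of Cox7a2l gave 0.8535, m4 being at 225.1 CPM and the others at 169.4 to 176.6. Ndufb11 in unstimulated samples had 0.8833, with f2 at 149.0 CPM and the others at 174.6 to 178.3. Ndufaf7 in unstimulated samples had 0.8592, with m4 at 33.94 CPM and the others at 41.05 to 42.35. Among the other genes of the pathway, the ratios in unstimulated samples were 0.9276 for Top1mt (m4 lowest), 0.9001 for Polrmt (m4 highest), 0.8838 for Pprc1 (m3 highest) and 0.8566 for Mterf1a (m2 lowest). In YFP- samples they were 0.855 for Coq10b (m3 lowest) and 0.8293 for Yy1 (f2 highest).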

How the results depend on the processing

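The fall of the summed mitochondrial genes in YFP+ cells kept its direction in every alternative tried, with log2 differences of -1.27 to -0.883 from YFP- and -1.164 to -0.827 from unstimulated samples. Centring on the median gave the -0.883. For YFP- over unstimulated the mitochondrial sum differed by 0.171, by 0.443 without the m3 samples and by 0.02 without the f2 samples. With totals that left out rRNA-like features, Lars2, Mir6236 and Gm23935 it differed by -0.011. The nuclear sums differed by 0.015, 0.047 and 0.032 for YFP- over unstimulated, YFP+ over unstimulated and YFP+ over YFP-, and moved with the scaling by more than the spread between samples. For YFP- over unstimulated they were -0.124 after centring, -0.085 with nuclear protein-coding totals and -0.167 with totals that left out rRNA-like features, Lars2, Mir6236 and Gm23935. That last scaling, leaving out the YFP+ sample m3 and adding the chromosome 1 copies were chosen after seeing the data. For YFP+ over unstimulated they were 0.194 after trimmed-mean scaling, 0.17 after centring, -0.034 without rRNA-like features, -0.082 with nuclear protein-coding totals and -0.144 without those 3 genes too. For YFP+ over YFP- they were 0.229 and 0.294 after trimmed-mean scaling and centring. The members called, 33, 46 and 14 in the same order, were 15 to 36, 34 to 51 and 7 to 15 when samples were left out, lowest without m4 in the first and last and without m2 in the other. For YFP+ over YFP- they were 9 with no filter, 26 after trimmed-mean scaling and 23 after centring.

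Same-numbered samples were not shown to pair: the correlation of their deviations was 0.0539 to 0.374 for YFP+ and YFP- (3 of 4 above 0.1), -0.0421 to 0.375 for YFP+ and unstimulated and -0.0587 to 0.1 for YFP- and unstimulated samples, and not every sample correlated best with its own label. The replicate block called 37, 47 and 16 members, and between YFP+ and YFP- it called mt-Co3 (-0.556, adjusted p = 0.0257), so that 10 of the 11 mitochondrial genes were lower.

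Of 177 gene values in the text, 89 kept their direction and call in all 15 alternatives. Of the 151 called, 59 lost the call when samples were left out in at least 1 way. Over all alternatives these gave 2645 values, of which 30, belonging to 13 of the 177, changed sign, none called before or after. For YFP- over unstimulated, Cox5a was -0.036 (trimmed mean), -0.12 (centring), -0.029 (without rRNA-like features), -0.085 (nuclear protein-coding totals), -0.17 (without the 3 genes too) and -0.025 to 0.086 leaving out samples. Cox4i1 was -0.016 (centring) and -0.059 (without the 3 genes), Atp5g3 -0.035 (without the 3 genes) and Ndufa4 -0.171 to 0.066 leaving out samples. For YFP+ over unstimulated, Cox5a was -0.04, -0.089 and -0.15 in the last 3 scalings, Cox4i1 -0.037 and -0.10 in the last 2, and Atp5g3 -0.012 and Ndufv1 -0.033 in the last. Cox7a2l was 0.10 (trimmed mean), 0.077 (centring) and -0.104 to 0.006 leaving out samples. Sdha ran from -0.455 to 0.266 leaving out samples, with 0.25 without the YFP+ sample m3. For YFP+ over YFP-, Atp5g2 was 0.028 (centring), Atp5g3 -0.004 (without rRNA-like features) and -0.053 to 0.088 leaving out samples, and mt-Nd3 0.026 (trimmed mean) and 0.09 (centring). The cause was not tested.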
